A study of Drosophila melanogaster with 93 samples.

Results

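H3K9me3 peaks of *fru P1* neurons from 1-day adult females (4 libraries) were compared with peaks from females at 48hr after puparium formation (APF, 4 libraries). The 8 peak lists were taken by their titles, without use of any measured value, from 31 H3K9me3 lists that cover 3 stages, both sexes and a second, pan-neuronal driver. The 1-day adults were collected 16 to 24 hours after eclosion. All flies of both groups carried *fru P1*-Gal4, which drove P[UAS-Chromatag], a tagged histone H2B with the biotin ligase that labels it, together with a P[w+mC, UAS-Gal4] element in a *w* background. Each library came from a pool of female flies, and chromatin was precipitated with an antibody to H3K9me3 and then on streptavidin. Chromatin was made from heads at 1 day and from whole pupae at 48hr APF, so the difference between the stages cannot be told apart from that between head and whole-body *fru P1* neurons, nor from that between the inputs, which were pooled separately for each stage. The values describe the *fru P1* population as a whole, and no expression of a gene was measured here.

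The *fru P1* neurons are those in which the most upstream promoter of *fruitless* is active, and in both sexes they form circuits for reproductive behavior. H3K9me3 is trimethylation of lysine 9 on histone H3. It is laid down by methyltransferases that include Su(var)3-9 and Eggless, is bound by Heterochromatin protein 1a, and is best known from pericentric heterochromatin, transposable elements and the small chromosome 4, with broader and weaker domains over silent genes of the arms. The reads used here were those that aligned once, so repeated sequence is mostly outside the measurement.

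Coverage, the percent of a gene body or of a 10 kb bin that lies under peaks, was the value compared. ChIP libraries held 4377902 to 6306013 tags at 1 day and 4431391 to 6295978 tags at 48hr APF, and the inputs 52341980 and 41654025 tags. Replicate 1 of 48hr APF, the deepest of its stage, stood apart from the other 3 on several values given below. Because the 1-day libraries were covered over a greater length, each result was also computed with peaks taken in order of p until every library covered the same length. This second version is called equal covered length below.

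Peaks covered more of the genome in 1-day adults. The covered length was 40.2, 38.1, 42.2 and 43.0 Mb in the 1-day libraries, against 35.7, 29.9, 30.5 and 31.0 Mb in the 48hr APF libraries, and every 1-day library was above every 48hr APF library. The means were 40.9 ± 2.23 Mb at 1 day and 31.8 ± 2.65 Mb at 48hr APF (SD, n = 4 each), a difference of 9.11 Mb (two-sided exact permutation test, p = 0.029, the smallest this design allows, adjusted p = 0.0476 over 5 library values). The number of peaks did not pass the test, with 26090 ± 664 at 1 day and 25496 ± 958 at 48hr APF (exact p = 0.371). The peaks were wider instead. Peaks of 5 kb or more numbered 968, 753, 1267 and 1042 at 1 day, against 448, 270, 299 and 255 at 48hr APF, a ratio of the means of 3.17 (exact permutation test, adjusted p = 0.0476). Median peak width was 1064 ± 37.6 bp at 1 day and 922 ± 36.6 bp at 48hr APF (adjusted exact p = 0.0476). Median fold enrichment over the local background did not pass the test, with 1.49 ± 0.0158 at 1 day and 1.47 ± 0.0296 at 48hr APF (exact p = 0.229). With equal covered length the 1-day libraries still held more peaks of 5 kb or more, 942 ± 177 against 316 ± 85.1 at 48hr APF. On that scale they held fewer peaks in all, 16092 ± 1298 against 23229 ± 1992 at 48hr APF, and a higher median fold enrichment, 1.54 ± 0.0108 against 1.48 ± 0.0199 at 48hr APF (exact permutation tests, adjusted p = 0.0357 each, no overlap). Without 1-day replicate 3 the differences were 8.65 Mb in covered length and 603 broad peaks, and without 1-day replicate 4 they were 8.39 Mb and 678, and neither these nor the width then passed the adjusted test.

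The greater coverage lay on the large arms, while chromosome 4 showed the opposite. On 2L, coverage was 32.2, 31.3, 34.2 and 34.0% at 1 day, against 26.5, 23.3, 23.5 and 24.2% at 48hr APF. The stages were likewise separate on 3L, with 29.2 ± 1.39% at 1 day and 22.2 ± 0.878% at 48hr APF, and on 3R, with 33.6 ± 1.88% at 1 day and 25.8 ± 1.75% at 48hr APF. They overlapped on 2R (28.6 ± 2.23% at 1 day, 23.6 ± 2.99% at 48hr APF) and on X (28.9 ± 1.89% at 1 day, 22.4 ± 3.73% at 48hr APF), in each case through replicate 1 of 48hr APF. Over the 16 arm and arm-end values tested, the smallest adjusted exact p was 0.0653. With equal covered length the arm differences were between -1.40 and 1.06 percentage points except on chromosome 4.

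Chromosome 4 is a small, largely heterochromatic chromosome whose genes are nevertheless expressed. Peaks covered 6.96, 11.2, 7.14 and 6.39% of it at 1 day, against 8.53, 23.7, 25.4 and 21.4% at 48hr APF (exact p = 0.0571, adjusted p = 0.0762). Only replicate 1 of 48hr APF fell within the 1-day range, and without it the difference was -15.6 percentage points (adjusted exact p = 0.0457). Leaving out the only overlapping library makes the stages separate, so that p follows from the choice and adds no evidence. With any other library left out, the adjusted exact p was 0.0762 to 0.114. The difference was -14.3 percentage points with equal covered length. Sequence under peaks in at least 2 of 4 libraries amounted to 0.0283 Mb at 1 day only and 0.222 Mb at 48hr APF only on chromosome 4. On all 6 arms these lengths were 27.6 Mb at 1 day only and 14.7 Mb at 48hr APF only, beside 22.6 Mb at both stages.

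**Figure D1:**
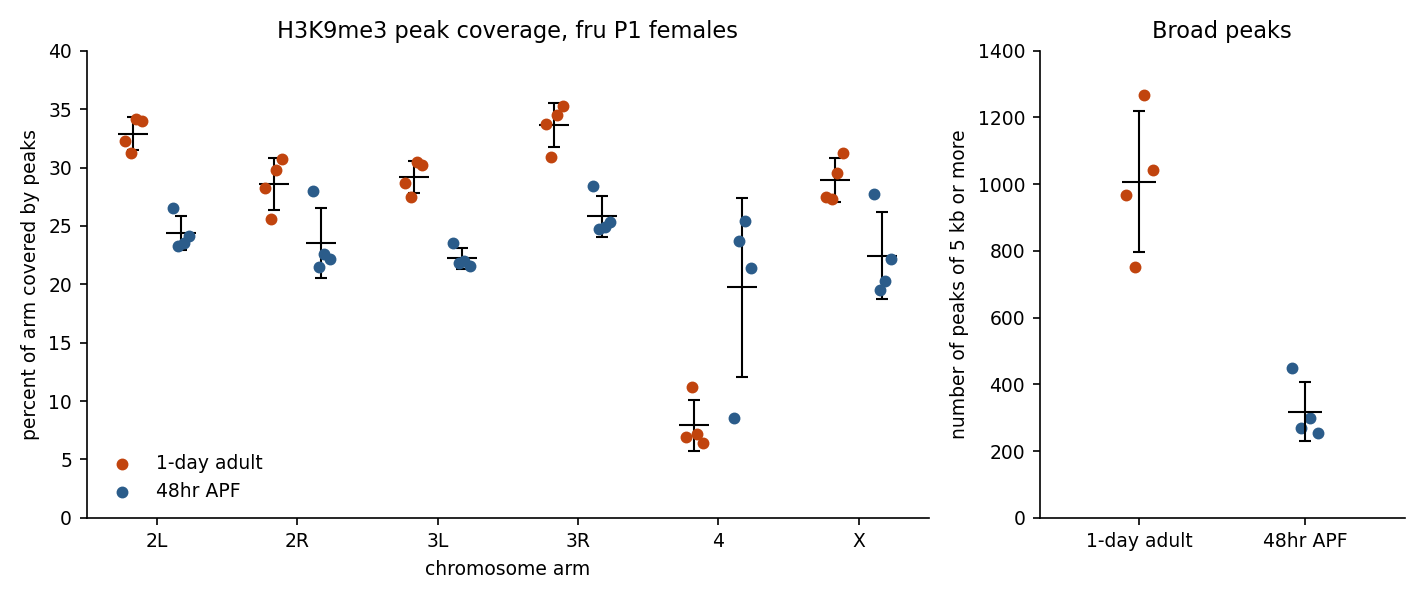
Percent of each chromosome arm covered by H3K9me3 peaks (left) and number of peaks of 5 kb or more (right) in the 4 1-day and 4 48hr APF libraries of *fru P1* females, with bars for the mean ± SD. Every arm but chromosome 4 has a higher mean at 1 day, and broad peaks number 753 to 1267 at 1 day and 255 to 448 at 48hr APF.

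The ends of the arms next to the centromeres, where H3K9me3 is known to be dense, were covered less than the arms as a whole in these lists of uniquely aligned reads. The proximal 1 Mb of 2R was covered to 4.19, 7.29, 5.62 and 4.44% at 1 day, against 0, 0.283, 0.228 and 0.655% at 48hr APF. On 3R the proximal 1 Mb was covered to 2.24 ± 0.677% at 1 day and 0.0770 ± 0.119% at 48hr APF, and on X to 13.3 ± 3.19% at 1 day and 5.18 ± 1.86% at 48hr APF. In these 3 regions the stages did not overlap (exact p = 0.029 each, adjusted p = 0.0653), whereas 2L and 3L were within 0.5 percentage points of each other (exact p = 0.8 and 0.571). Annotated transposable element insertions were covered to 2.54 ± 0.341% at 1 day and 2.49 ± 0.756% at 48hr APF (exact p = 0.914).

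Of 11822 bins of 10 kb with a mean coverage of at least 5%, 1628 gained coverage (13.8%) and 308 lost coverage (2.61%) at an adjusted p below 0.05 in limma, which moderates each bin's variance by those of all bins. Gains were thus 84.1% of the calls. With equal covered length the split was 566 gained and 672 lost, and the median difference over all bins was -1.96 percentage points rather than 6.42. Nearly every call had the same sign on that scale, 1627 of the 1628 gains and 308 of the 308 losses. That scale uses a subset of the same peaks, so the sign is no independent check. Of the gains 563 were still called (34.6%), and of the losses 261 (84.7%). Without any test, 1857 bins were higher in all 1-day than in all 48hr APF libraries (15.7%) and 423 were lower (3.58%). Median coverage of the gaining bins, which were called on these values, was 56.5% at 1 day and 19.1% at 48hr APF, and of the losing bins 6.30% at 1 day and 34.5% at 48hr APF. On chromosome 4, limma called 35 of 106 bins lost (33.0%) and 0 gained, and 0 bins were higher at an unadjusted p below 0.05. The highest share of gained bins was on 2L, 357 of 2206 (16.2%), and the lowest on the large arms was on 2R, 211 of 2118 (9.96%). Leaving out 1 library gave between 1046 and 1922 gained bins and between 168 and 349 lost bins.

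Gaining and losing bins differed in what they held. Genes made up 60.5% of the sequence of gaining bins on average and 92.0% of losing bins, against 73.1% over all bins tested. Bins with no gene start gained in 804 of 4684 cases (17.2%) and bins with 5 or more starts in 70 of 793 (8.83%). Median GC content was 42.7% in gaining bins, 40.5% in losing bins and 42.3% in all bins tested. The local background that the peak caller set beneath the peaks of gaining bins had a median of 1.26 to 1.34 in the 1-day libraries and 1.18 to 1.32 in the 48hr APF libraries, and the part of this background in the result was not tested.

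Gained bins formed 998 runs of adjacent bins, of which 737 were single bins and 123 held 3 or more bins. Several of the longest lay over genes of neural cell surface proteins. The longest run, 2L:15930001-16140000 (dm6), spans 210 kb with *beat-Ia*, *beat-Ib* and *beat-Ic*, which encode immunoglobulin proteins of the Beaten path family that act in axon guidance, and *BicC*, an RNA-binding regulator of oogenesis. It was covered to 43.4, 53.6, 53.2 and 38.4% at 1 day, against 1.64, 4.34, 3.61 and 5.77% at 48hr APF. It held 55 to 58 peaks per 1-day library and 3 to 16 per 48hr APF library, so the run was made of many separate peaks. With equal covered length the difference in this run was 35.3 percentage points.

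The next run, 3L:13610001-13790000, lies over the large introns of *bru3*, which encodes a Bruno-type regulator of splicing and translation. Its coverage was 56.3, 47.2, 65.4 and 49.3% at 1 day, against 1.56, 3.67, 5.76 and 13.6% at 48hr APF. Of the 29 bins tested that overlap *bru3*, 20 gained coverage. A second Beat cluster, *beat-IIIa* and *beat-IIIc* with the gustatory receptor genes *Gr36a*, *Gr36b* and *Gr36c*, occupied the run 2L:17150001-17330000, covered to 42.1 ± 6.94% at 1 day and 1.46 ± 0.874% at 48hr APF. Its neighbor 2L:16980001-17130000 with *beat-IIIb* was covered to 49.1 ± 4.74% at 1 day and 0.688 ± 0.978% at 48hr APF.

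The run 2L:17760001-17930000 covers the neural cadherin genes *CadN2* and *CadN*, whose products mediate adhesion of axons, and had 40.9 ± 3.18% at 1 day and 4.03 ± 2.46% at 48hr APF. All 10 tested bins of *CadN2* gained coverage, as did 9 of 14 of *CadN*. The run 2L:15280001-15440000 spans the Snail-family genes *esg* and *wor*, which encode zinc finger factors of stem cells and neuroblasts. It had the highest level of these runs, 72.5 ± 3.33% at 1 day, and already 19.5 ± 2.0% at 48hr APF. Neither gene body passed the test. *esg* was covered to 42.4, 0, 42.3 and 51.3% at 1 day, against 33.1, 0, 0 and 12.4% at 48hr APF (limma adjusted p = 0.454). Further runs held *Toll-6*, a Toll-family receptor gene, *knrl*, a nuclear receptor gene, *side-VI*, a gene for a partner of Beat proteins, and on X *Ten-a*, a teneurin gene of synaptic partner matching.

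Lost bins, which were fewer, formed 267 runs, of which 234 were single bins, so bins of both directions were mostly single. Runs of 3 or more lost bins numbered 5, and 3 of them were on chromosome 4. The longest were 3 runs of 40 kb. Of these, 4:440001-480000 holds *Taf3* (a subunit of the general transcription factor TFIID), *lgs* (a Wnt pathway co-activator), *Asator* and *CaMKI* (kinases). Its coverage was 4.11, 1.99, 2.16 and 0.768% at 1 day, against 8.91, 38.6, 44.3 and 41.7% at 48hr APF. The run 4:890001-930000 with *eIF4G1* and *unc-13*, which acts in synaptic vesicle priming, was covered to 5.52 ± 4.45% at 1 day and 31.4 ± 11.2% at 48hr APF. Off chromosome 4, 2R:18320001-18360000 lies within *sbb*, which encodes a zinc finger corepressor, and was covered to 1.73, 2.85, 8.64 and 2.45% at 1 day, against 31.7, 29.3, 29.6 and 24.1% at 48hr APF. On 2R:19410001-19440000, with *Spt5*, *CalpA*, *Fak* and *hts*, coverage was 6.44 ± 3.11% at 1 day and 33.8 ± 8.82% at 48hr APF. Of shorter losses, 2 adjacent bins of *chinmo*, a BTB zinc finger gene of neuronal temporal identity, were covered to 5.90 ± 4.67% at 1 day and 40.3 ± 19.4% at 48hr APF. Over the whole of *chinmo* the difference was -11.2 percentage points (limma adjusted p = 0.482).

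**Figure D2:**
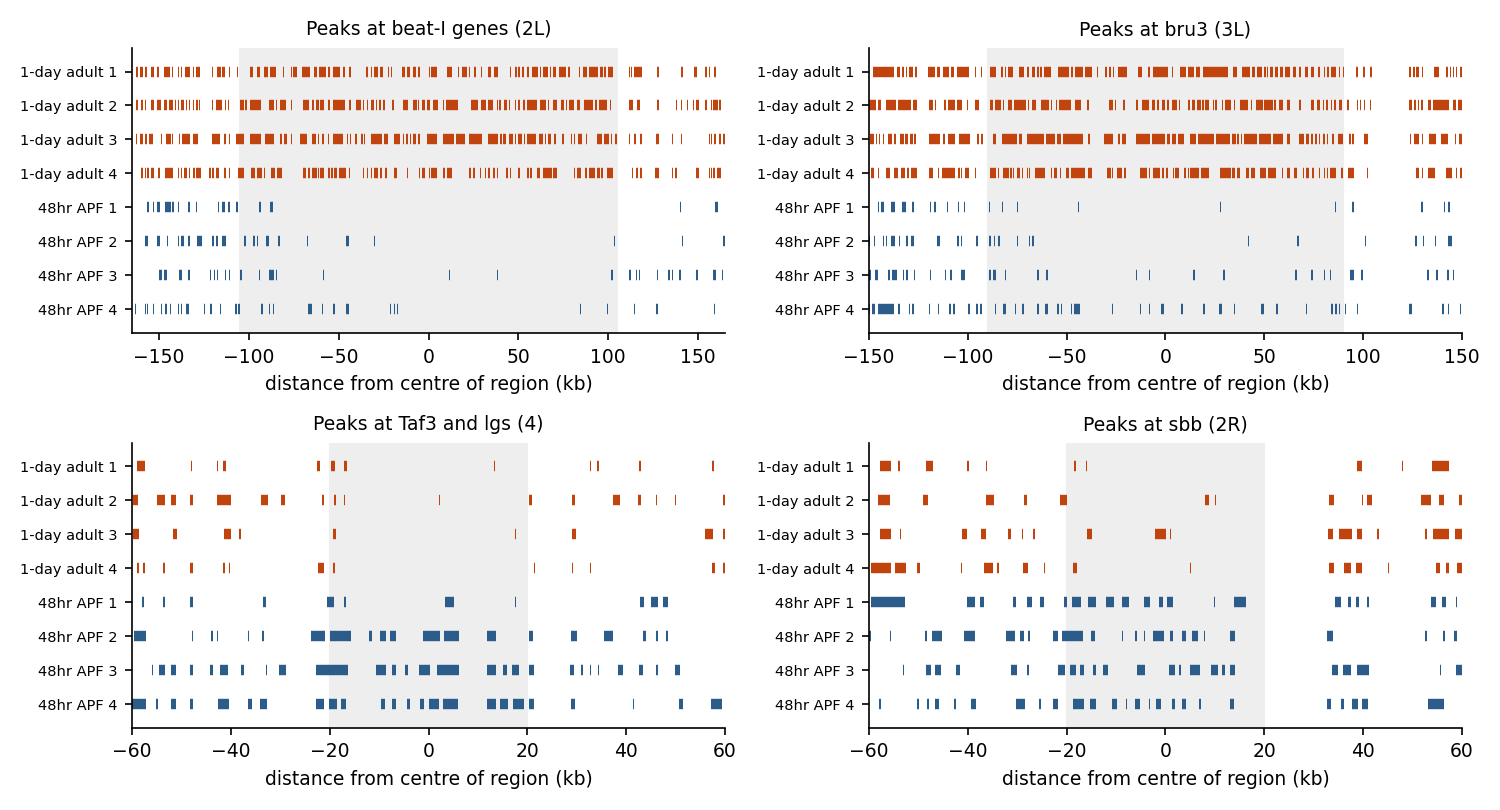
Peaks of each of the 8 libraries around the longest gained runs (top, at the *beat-I* genes and *bru3*) and lost runs of 40 kb on and off chromosome 4 (bottom, at *Taf3* and *lgs* and at *sbb*), as distance in kb from the middle of the run, which is shaded. At the *beat-I* genes 55 to 58 peaks per 1-day library stand against 3 to 16 per 48hr APF library, at *Taf3* and *lgs* 1 to 3 stand against 4 to 11, and at *sbb* 2 to 3 stand against 10 to 11.

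Of 11291 genes of at least 1 kb tested, 175 gained coverage (1.55%) and 26 lost coverage (0.23%) at a limma adjusted p below 0.05, and 1804 and 442 did so at an unadjusted p below 0.05. The median difference over all genes was 7.13 percentage points, and -2.29 with equal covered length, where the calls were 63 gained and 56 lost. On that scale 172 of the 175 gained and 26 of the 26 lost genes had the same sign, and 48 and 20 of them were still called. Coverage was separate between the stages in 1117 genes that were higher at 1 day (9.89%) and 333 that were lower (2.95%). These gene calls rested on single libraries more than the bin calls. They numbered 424 gained and 58 lost without replicate 1 of 48hr APF, and 35 gained and 1 lost without replicate 3 of 1-day, and leaving out any other library gave at least 44 gained and 5 to 12 lost. Shorter genes were called more often, 107 of 3822 gained (2.80%) at 1 to 2 kb and 9 of 1683 (0.535%) at 10 to 50 kb.

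The gained genes had a median of 75.1% at 1 day and 4.67% at 48hr APF. They were called on these same values, so the low level at 48hr APF is no separate result. A gene free of peaks in a stage passed the filter of 5% mean coverage through the other stage alone. Of named genes taken by size of difference and more than 20 kb apart, the top was *sna*, which lies next to the *esg* and *wor* run. *sna* encodes a zinc finger repressor that is needed for mesoderm formation. It was covered to 100, 100, 67.1 and 100% at 1 day, against 0% in each 48hr APF library (91.8 ± 8.21 percentage points, SE, limma adjusted p = 0.0085). The genes after it fall into groups by product. Cuticle and apical matrix genes were *Osi10b* and *Osi14* of the Osiris family, *TwdlX* and *TwdlN* of the Tweedle cuticle family, *obst-F* and *Cht5* (a chitin-binding protein and the chitinase of molting), and *Muc18B* (a mucin). *TwdlX* was covered to 97.3, 100, 100 and 83.1% at 1 day, against 0, 26.8, 0 and 0% at 48hr APF (adjusted p = 0.0170 in limma). *Cht5* was covered to 94.6, 100, 100 and 62.4% at 1 day, against 0, 7.19, 13.6 and 0% at 48hr APF (adjusted p = 0.0249 in limma).

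Regulators among the top genes were *Elba1*, of an early-embryo insulator complex, *Hr83*, a nuclear receptor gene, and *sob*, of the odd-skipped zinc finger family. The glycolytic duplicate *Pglym87* completed the list. *Elba1* was covered to 81.8, 97.1, 91.0 and 93.7% at 1 day, against 14.6, 0, 0 and 0% at 48hr APF (87.2 ± 4.91 percentage points, SE, limma adjusted p = 0.0085). *Hr83* and *Pglym87* were high at 1 day in all 4 libraries, at 87.4 to 100% and 92.6 to 100%, and at 48hr APF had coverage in replicate 1 alone, 39.5 and 55.4%. Chosen after their values were seen, *CG3650* and *CG30088* were covered to 100% in each 1-day library, with at most 17 and 14.4% in any 48hr APF library.

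The windows around the starts of 3 genes with high 1-day coverage are shown in full, because peaks lay over the start itself there. Each runs from 250 bases before to 50 after the annotated gene start, 5′ to 3′ on the gene's strand, from the RefSeq Release 6 sequence (dm6 coordinates). Capitals mark matches on either strand to the DRE core TATCGATA, the TATA box TATAAA, the GAGA element GAGAG and the initiator core TCAGT, which may overlap. The window of *sna* (2L:15478211-15478510, minus strand) was covered to 76.7, 100, 100 and 100% at 1 day and 0% in each 48hr APF library. That of *Ccp84Ag* (3R:6686478-6686777, plus strand), a cuticle protein gene, was covered to 100% in each 1-day library and 0% in each 48hr APF library. That of the Hox gene *Ubx* (3R:16734377-16734676, minus strand) was covered to 100% in each 1-day library, against 0, 0, 38.3 and 0% at 48hr APF.
sna: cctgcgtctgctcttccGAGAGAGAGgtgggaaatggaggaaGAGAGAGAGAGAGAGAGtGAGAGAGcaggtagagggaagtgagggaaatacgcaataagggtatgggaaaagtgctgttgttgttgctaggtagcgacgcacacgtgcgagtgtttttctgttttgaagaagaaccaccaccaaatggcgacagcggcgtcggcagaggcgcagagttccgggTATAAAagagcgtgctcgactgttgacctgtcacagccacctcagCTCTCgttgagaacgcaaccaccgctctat
Ccp84Ag: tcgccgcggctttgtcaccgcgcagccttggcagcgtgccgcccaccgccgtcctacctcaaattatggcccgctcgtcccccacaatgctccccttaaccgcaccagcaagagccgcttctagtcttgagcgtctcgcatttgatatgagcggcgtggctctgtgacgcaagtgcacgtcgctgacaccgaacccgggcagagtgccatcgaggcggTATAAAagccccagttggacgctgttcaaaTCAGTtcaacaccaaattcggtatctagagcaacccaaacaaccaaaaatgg
Ubx: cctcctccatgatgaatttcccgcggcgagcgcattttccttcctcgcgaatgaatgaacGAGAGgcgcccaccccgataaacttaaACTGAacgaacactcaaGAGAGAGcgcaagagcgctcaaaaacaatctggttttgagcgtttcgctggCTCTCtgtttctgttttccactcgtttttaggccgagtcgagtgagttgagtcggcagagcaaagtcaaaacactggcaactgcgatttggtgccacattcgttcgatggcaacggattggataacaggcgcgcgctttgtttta

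Lost genes, likewise called on these values, had a median of 0% at 1 day and 49.6% at 48hr APF. *Gbeta5* on X, a G protein beta subunit gene of neurons, was covered to 0% in each 1-day library, against 74.1, 25.9, 75.8 and 74.9% at 48hr APF (-62.7 ± 12.2 percentage points, SE, limma adjusted p = 0.0246). *Taf3* on chromosome 4 was covered to 0, 2.88, 0 and 0% at 1 day, against 27.6, 79.8, 70.8 and 74.2% at 48hr APF (adjusted p = 0.0271 in limma). *gw*, also on chromosome 4 and the gene for the GW182 protein of microRNA silencing, was covered to 0, 0, 2.08 and 9.37% at 1 day, against 41.9, 66.3, 51.6 and 63.2% at 48hr APF (adjusted p = 0.0263 in limma). *ND-49* on the same chromosome, a subunit gene of mitochondrial complex I, had 0% in each 1-day library and 35.6 to 61.3% at 48hr APF.

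Of the 12 named by size, 4 have roles in membrane traffic, and the share of such genes among all genes tested was not counted. *Arl5*, a small GTPase gene of the Golgi, *hook*, an endosomal motor adaptor gene, *Syx17*, the syntaxin gene of autophagosome fusion, and *Vti1b*, a SNARE gene, each lost coverage. *Syx17* was covered to 0, 0, 0 and 13.2% at 1 day, against 51.1, 41.4, 77.2 and 42.3% at 48hr APF (adjusted p = 0.0429 in limma), and *Vti1b* to 0, 0, 12.1 and 6.55% at 1 day, against 43.6, 45.5, 54.7 and 38.8% at 48hr APF (adjusted p = 0.0485 in limma). The others named by size were *Nufip*, *wap*, *Cyt-c-d* (a cytochrome c gene) and *CkIIalpha-i1*, each at 0% in all 1-day libraries. Neighboring noncoding genes on opposite strands of 2L, chosen after their values were seen, lost coverage. *lncRNA:CR44915* was covered to 27.9, 0, 0 and 0% at 1 day, against 52.8, 100, 100 and 100% at 48hr APF, and *lncRNA:CR44914* to 0% in each 1-day library, against 18.3, 55.3, 44.6 and 43.3% at 48hr APF.

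**Figure D3:**
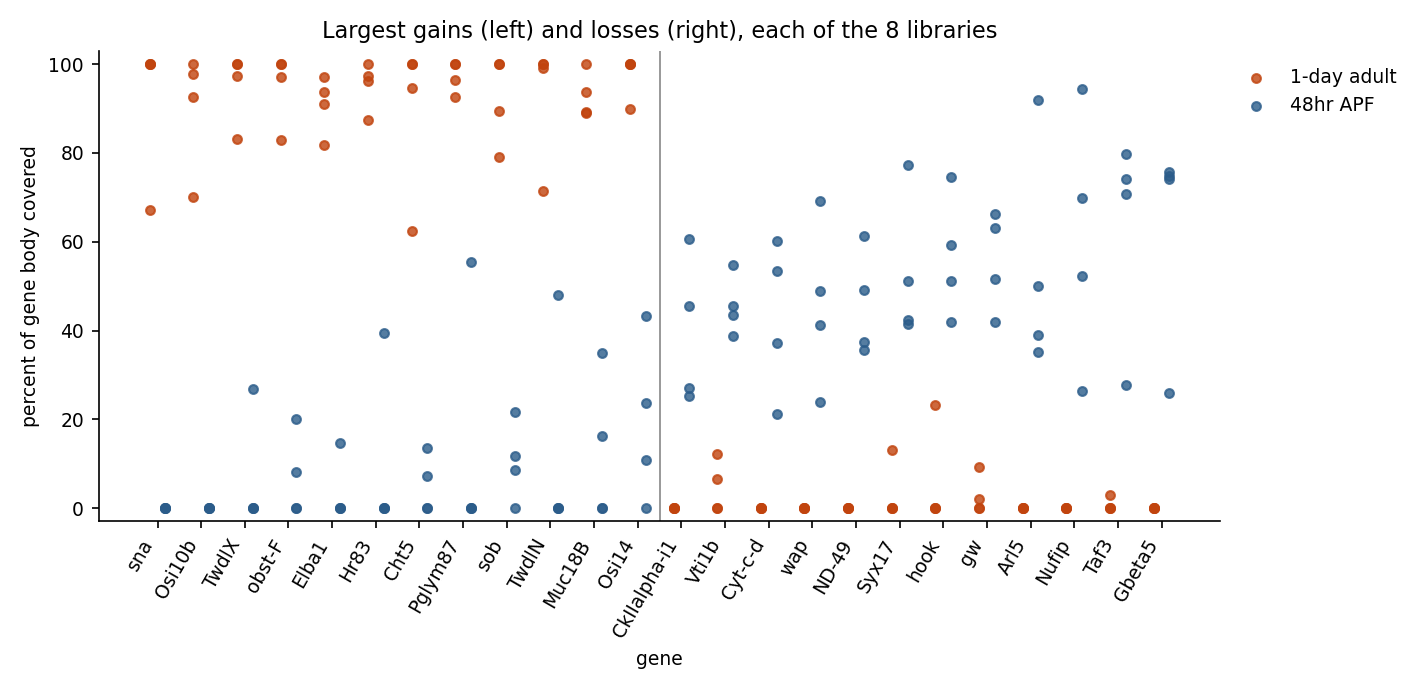
Percent of the gene body covered in each of the 8 libraries for the 12 named genes with the largest gains (left, from *sna*) and the 12 with the largest losses (right, ending at *Gbeta5*). Gained genes sit at 62.4 to 100% in 1-day libraries and mostly at 0% at 48hr APF, where replicate 1 reaches 55.4% at *Pglym87*, and lost genes have at most 23.2% at 1 day.

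For the lost genes 3 start windows are shown, a noncoding gene with a 48hr APF peak over its start and the largest 2 losses taken by the naming rule, whose starts were free of peaks at both stages. *CG14933*, a coding gene that the rule left out for want of a name, had a larger loss of -70.4 percentage points, and its start window was covered to 0, 0, 62.7 and 0% at 1 day, against 0, 0, 100 and 0% at 48hr APF. The window of *lncRNA:CR44914* (2L:6872464-6872763, plus strand) was covered to 10.3, 0, 0 and 0% at 1 day, against 94.7, 100, 100 and 100% at 48hr APF. The windows of *Taf3* (4:466779-467078, minus strand) and *Gbeta5* (X:8152226-8152525, minus strand) were covered to 0% in all 8 libraries, so their 48hr APF peaks lay further inside the genes, and both windows hold the DRE core in capitals.
lncRNA:CR44914: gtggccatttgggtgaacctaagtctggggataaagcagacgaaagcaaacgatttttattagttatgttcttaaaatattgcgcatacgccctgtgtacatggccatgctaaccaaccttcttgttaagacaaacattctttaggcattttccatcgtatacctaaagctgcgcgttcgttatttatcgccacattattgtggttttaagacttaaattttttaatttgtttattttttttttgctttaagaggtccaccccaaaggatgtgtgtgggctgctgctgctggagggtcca
Taf3: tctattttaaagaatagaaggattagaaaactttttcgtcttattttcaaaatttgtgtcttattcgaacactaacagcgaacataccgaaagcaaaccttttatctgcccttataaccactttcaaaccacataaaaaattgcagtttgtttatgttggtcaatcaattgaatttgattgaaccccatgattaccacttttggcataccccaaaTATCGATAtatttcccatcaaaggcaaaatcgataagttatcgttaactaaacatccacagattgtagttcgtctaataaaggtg
Gbeta5: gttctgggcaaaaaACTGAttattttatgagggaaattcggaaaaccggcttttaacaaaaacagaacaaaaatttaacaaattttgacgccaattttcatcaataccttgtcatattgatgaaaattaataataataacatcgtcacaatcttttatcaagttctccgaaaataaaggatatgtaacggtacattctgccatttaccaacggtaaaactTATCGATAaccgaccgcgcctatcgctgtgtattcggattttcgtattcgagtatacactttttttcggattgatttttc

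The DRE core, the site of the DREF factor at many broadly expressed genes, was in the start window of 1 of 175 gained genes (0.571%) and 7 of 26 lost genes (26.9%), against 1035 of 11291 genes tested (9.17%) and 7.52% of all annotated genes. The 7 were *14-3-3epsilon*, *Arl5*, *CkIIalpha-i1*, *Gbeta5*, *NTPase*, *hook* and *Taf3*. In the larger sets without overlap between the stages it was in 3.13% of higher and 10.8% of lower genes. The TATA box was in 51.4% of gained, 42.3% of lost and 42.3% of tested genes. The GAGA element was in 41.7% of gained, 30.8% of lost and 31.9% of tested genes, and the initiator core in 59.4% of gained, 30.8% of lost and 50.9% of tested genes. All annotated genes held the TATA box in 43.9%, the GAGA element in 29.5% and the initiator in 50.6% of windows. These are counts of letters in a window and were not tested.

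Gene lists were described by their counts and medians beside those of all genes, a median of 7.13 percentage points, or -2.29 with equal covered length. Of all genes, 9.89% were higher and 2.95% lower without overlap. On average 7062 of the 11291 genes tested were higher at 1 day and 4228 lower. At an unadjusted p below 0.05 in limma, 1804 were higher and 442 lower. Genes of the exoskeleton stood highest. Cpr cuticle proteins, which carry the chitin-binding Rebers-Riddiford motif, were higher at 1 day in 38 of 40 genes tested, with a median of 35.3 (27.0 with equal covered length), and 2 passed the test. *Cpr64Aa* was covered to 79.0, 93.5, 49.1 and 100% at 1 day, against 0, 0, 0 and 16.8% at 48hr APF (limma adjusted p = 0.0314). *Ccp84Ag* was covered to 60.8, 76.2, 61.2 and 65.8% at 1 day, against 0, 30.3, 0 and 0% at 48hr APF (limma adjusted p = 0.0417). Osiris genes, a cluster on 3R for endosomal proteins of cuticle-forming cells, had a median of 49.7 (48.8 with equal covered length), with 24 of 24 higher and 5 of 24 past the test. Tweedle genes had a median of 43.1, with 18 of 18 higher and 2 past the test. The Osiris and Tweedle lists were added after the values were seen, so their direction is no independent evidence.

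Chemosensory receptor genes, each active in few sensory neurons, were also more covered at 1 day than genes at large. Ionotropic receptors had a median of 26.7 percentage points, with 56 of 64 higher, 11 of 64 without overlap (17.2%) and 2 past the test. Odorant receptors had 24.2, with 44 of 58 higher, 4 of 58 without overlap (6.9%) and 1 past the test. Gustatory receptors had 22.4, with 49 of 60 higher, 6 of 60 without overlap (10%) and 2 past the test. Against 9.89% of all genes, the share without overlap was thus near or below the background in odorant and gustatory receptors. *Ir51a*, annotated as a pseudogene, was covered to 77.8, 70.9, 89.2 and 78.4% at 1 day, against 16.6, 0, 0.476 and 0% at 48hr APF (limma adjusted p = 0.0144), and *Or85a* to 100% in each 1-day library, against 35.9, 45.8, 0 and 41.1% at 48hr APF (limma adjusted p = 0.0413). *Ir64a*, for an acid-sensing receptor, *Gr77a*, *Gr36a* and the odorant-binding protein gene *Obp19b* were the other calls. Pickpocket channels, which include pheromone and mechanical sensors, had a median of 22.9, with 22 of 29 higher and 6 without overlap, and limma called 0, with 9 higher and 1 lower at an unadjusted p below 0.05. All 4 families stayed positive with equal covered length, from 13.2 to 16.9.

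Homeotic and other homeobox genes, the transcription factors of body and neuronal identity, had high medians without single-gene calls. All 9 genes of the Antennapedia complex and all 3 of the bithorax complex were higher on average at 1 day, with medians of 27.0 and 31.1 (19.7 and 24.0 with equal covered length). *Ubx* was covered to 81.1, 83.4, 88.0 and 78.0% at 1 day, against 36.1, 47.3, 45.0 and 44.9% at 48hr APF, which do not overlap (limma adjusted p = 0.122). *abd-A* was covered to 70.3, 60.3, 71.5 and 52.7% at 1 day, against 34.5, 30.9, 31.1 and 33.9% at 48hr APF (limma adjusted p = 0.154). *Antp* was covered to 76.9, 62.9, 72.5 and 67.7% at 1 day, against 33.0, 24.7, 24.1 and 36.7% at 48hr APF (limma adjusted p = 0.0878). At the level of bins, 8 of 9 over *Ubx*, 3 of 4 over *abd-A* and 7 of 11 over *Antp* gained coverage, and 0 of 6 over *Abd-B*, whose gene body was covered to 60.2 ± 4.43% at 1 day and 43.4 ± 6.4% at 48hr APF (SD). Other homeobox genes had a median of 19.5, with 67 of 77 higher and 29 of 77 without overlap (37.7%). That share was 27.2% among genes of 50 kb or more, and the list was not matched for length. Limma called 0 of the other homeobox genes, with 22 higher and 1 lower at an unadjusted p below 0.05, and likewise 0 of the 12 Hox complex genes, with 5 higher and 0 lower.

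Genes of neuronal wiring were divided. The Beat and Side families, immunoglobulin receptors and ligands of axon guidance, had a median of 19.8 (11.1 with equal covered length), with 21 of 22 higher, 13 of 22 without overlap (59.1%) and 5 past the test. Among genes of 50 kb or more, 83 of 305 were higher without overlap (27.2%). The lists of wiring genes were not matched for length. *beat-IIIc* was covered to 40.6, 43.0, 44.8 and 33.3% at 1 day, against 0, 0.921, 0 and 0.579% at 48hr APF (limma adjusted p = 0.0249). *beat-IIIb* was covered to 33.7, 25.4, 34.7 and 41.5% at 1 day, against 0% in each 48hr APF library (limma adjusted p = 0.0295). *beat-Ia*, *beat-Ic* and *beat-IIIa* were the other calls. Neuroblast temporal factors had a median of 18.9, and *cas*, the castor zinc finger gene of late neuroblasts, was covered to 89.7, 54.2, 85.6 and 84.5% at 1 day, against 26.6, 20.3, 4.12 and 7.46% at 48hr APF (limma adjusted p = 0.0417). Dpr and DIP cell-surface genes had a median of 10.3 (0.250 with equal covered length), with 25 of 32 higher. Without overlap 8 of 32 were higher (25%) and 1 lower, and limma called 0. The larger list of axon guidance and adhesion genes had 1.33, and -8.96 with equal covered length, so its sign turns with the scaling. *CadN2* was its only call, covered to 44.9, 43.0, 43.8 and 36.8% at 1 day, against 2.59, 2.58, 5.88 and 4.90% at 48hr APF (limma adjusted p = 0.0370).

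Lists of broadly expressed genes stood at the low end. Cytoplasmic ribosomal protein genes had a median of -16.1 (-16.9 with equal covered length), with 38 of 47 lower, 4 of them without overlap (8.51% of the list). Limma called 0, with 8 lower and 1 higher at an unadjusted p below 0.05. Over all 93 annotated members, tested or not, the median difference was -11.1. Mean coverage of these 93 was 3.49, 4.92, 5.51 and 10.1% at 1 day, against 31.9, 16.6, 15.2 and 16.2% at 48hr APF, which do not overlap. Mitochondrial lists added after the values were seen were lower too, with medians of -14.6 for complex I, -18.9 for the bc1 and oxidase complexes and -15.3 for mitochondrial ribosomal proteins, of which *mRpL27* passed the test at 0% in each 1-day library, against 41.0, 40.5, 43.2 and 32.4% at 48hr APF (limma adjusted p = 0.0229). Proteasome (-14.0), Vps trafficking (-13.8) and syntaxin (-13.2) lists were added in the same way and lay in the same range, while translation initiation factors, added likewise, had -0.746. Genes of chromosome 4 had -19.4, with 74 of 79 lower and 4 past the test.

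Some neuronal lists were also low. The synaptic release machinery had a median of -9.51 (-16.6 with equal covered length), with 16 of 22 lower, and limma called 0, with 3 lower and 1 higher at an unadjusted p below 0.05. *Syt1*, the calcium sensor gene of vesicle release, was covered to 9.5, 13.4, 15.8 and 6.30% at 1 day, against 25.0, 22.3, 25.7 and 30.1% at 48hr APF, which do not overlap (limma adjusted p = 0.298). Circadian clock genes had a median of -10.8 with 8 of 12 lower, and 0 calls in limma (2 lower at an unadjusted p below 0.05). Among them *Clk* averaged 33.2% at 1 day and 52.6% at 48hr APF, and *per* 54.3% at 1 day and 24.7% at 48hr APF. Potassium channel (0.564), monoamine receptor (1.92), neuropeptide receptor (9.09), GABA and glutamate receptor (5.53), ecdysone response (4.29) and heterochromatin protein (1.80) lists had positive medians that turned negative with equal covered length. The median over all genes turned in the same way, from 7.13 to -2.29. The neuropeptide receptor median was above 7.13 and, with equal covered length, near that of all genes at -2.52.

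**Figure D4:**
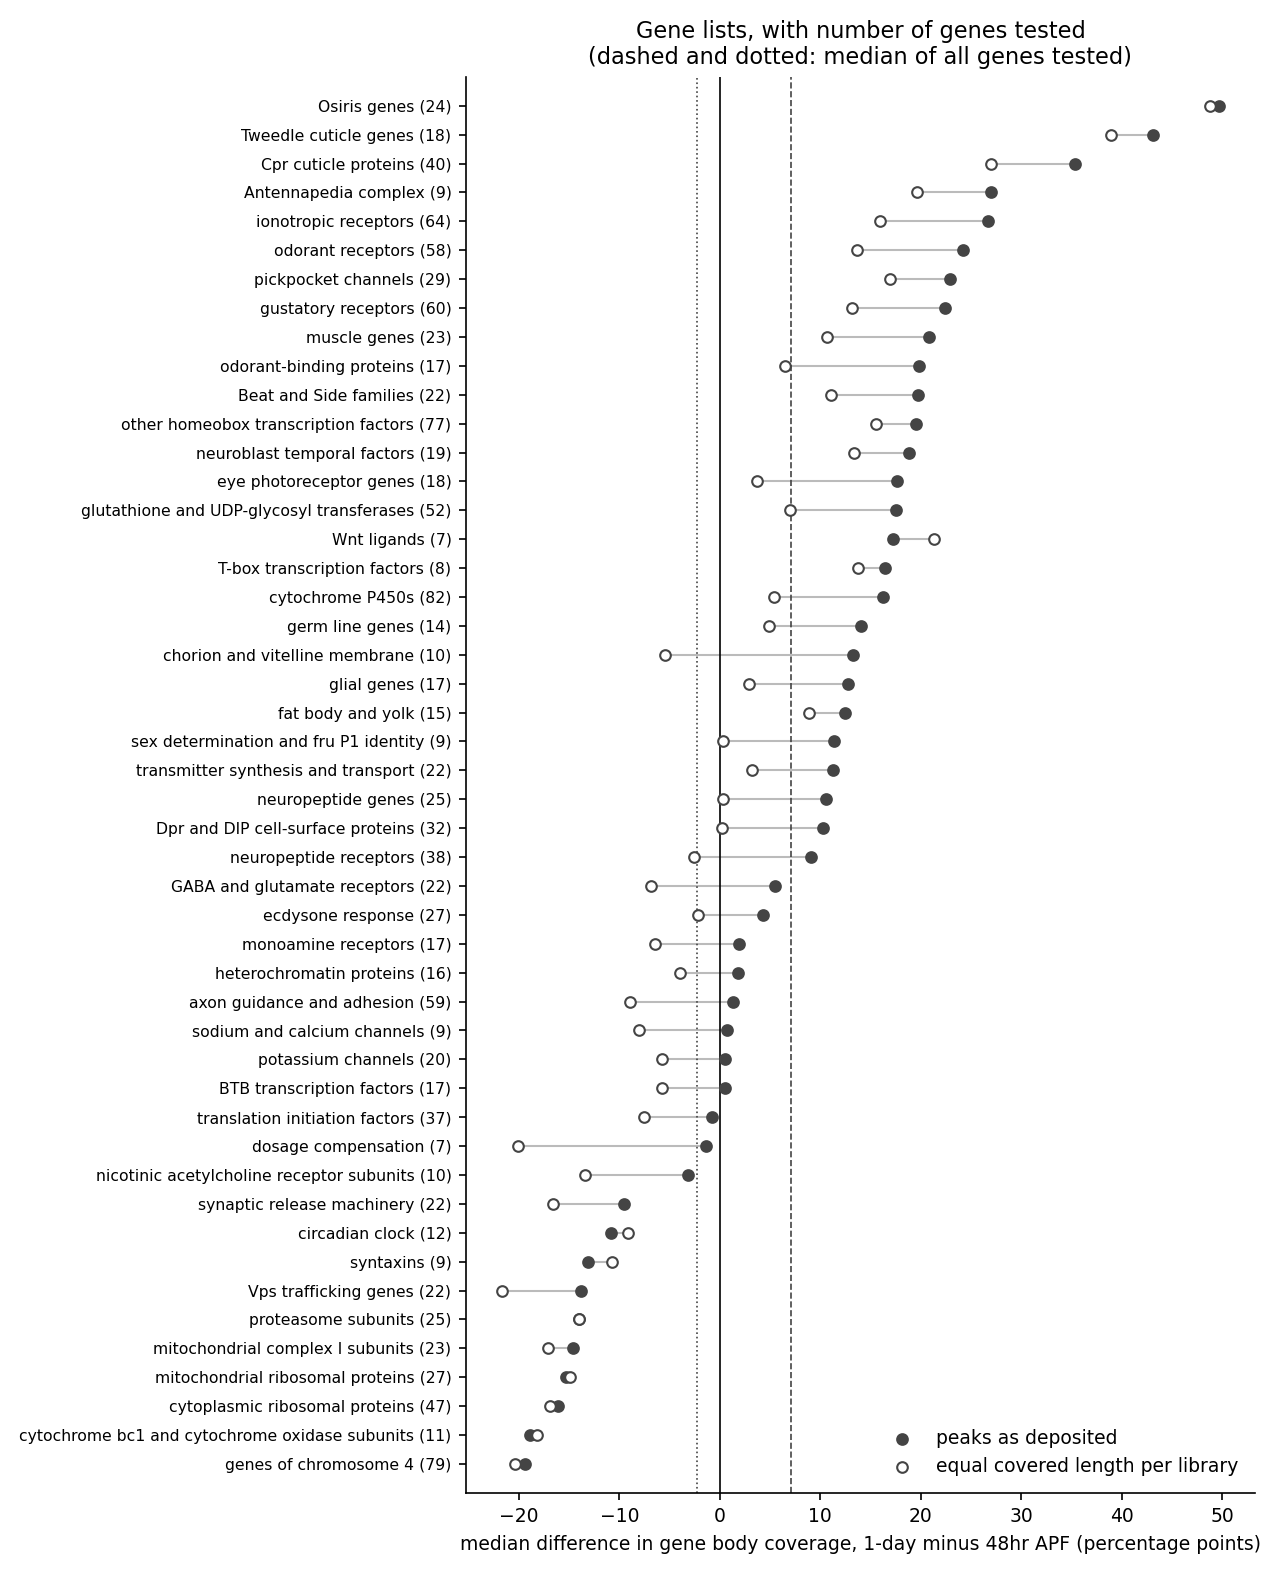
Median difference in gene body coverage, 1-day minus 48hr APF in percentage points, for gene lists with the number of genes tested, from peaks as deposited (filled) and with equal covered length (open). Dashed and dotted lines mark the medians of all genes, 7.13 and -2.29, and Osiris, Tweedle and Cpr genes lie at 35.3 to 49.7 while ribosomal protein, oxidase and chromosome 4 genes lie at -16.1 to -19.4.

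*fru* itself, a 131314 bp gene on 3R whose P1 promoter drove the tag, was covered to 47.1, 44.3, 47.5 and 42.7% at 1 day, against 35.9, 33.5, 34.5 and 30.6% at 48hr APF. The stages did not overlap, but the difference of 11.8 ± 1.6 percentage points (SE), beside a median of 7.13 over all genes, did not pass the test (limma adjusted p = 0.468), and 2 of its 14 bins gained. *dsx*, the other sex-specifically spliced regulator, was covered to 41.5, 41.2, 49.1 and 49.6% at 1 day, against 22, 36.1, 26.8 and 35.8% at 48hr APF (limma adjusted p = 0.366). Coverage of a marker gene does not measure how many cells of that type were present. Muscle genes had a median of 20.8 with 18 of 23 higher, and glial genes 12.8 with 12 of 17 higher. Eye photoreceptor genes had 17.7 with 13 of 18 higher, and germ line genes 14 with 10 of 14 higher. Of all genes tested, 7062 of 11291 were higher. *Mhc*, the muscle myosin heavy chain gene, was covered to 55.6, 45.2, 42.5 and 47.3% at 1 day, against 25.0, 24.1, 15.7 and 23.4% at 48hr APF (limma adjusted p = 0.150). The muscle marker *Mef2* was lower without overlap, 16.8% at 1 day and 27.5% at 48hr APF on average (limma adjusted p = 0.454). So was the glial marker *Gs2*, 7.2% at 1 day and 25.6% at 48hr APF (limma adjusted p = 0.186). The glial markers *nrv2* and *alrm* were lower on average too, and *repo* and *moody* higher. *Rh5*, a rhodopsin gene, was covered to 63.2, 46.5, 80.1 and 69.0% at 1 day, against 0% in each 48hr APF library (limma adjusted p = 0.0085). *elav*, a pan-neuronal gene, was little covered at either stage, 11.4% at 1 day and 7.06% at 48hr APF on average. The other neuronal markers varied. *nSyb*, *brp*, *Syt1*, *para*, *fne* and *Rdl* were lower on average at 1 day, and *VGlut*, *VAChT* and *Gad1* were higher. *Gad1* was covered to 66.9% at 1 day and 52.3% at 48hr APF. Of 34 marker genes of all cell types, limma called 0. How much of these differences goes with heads against whole pupae was not tested.

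Along genes, peaks were thinner at start sites at both stages. Coverage within 250 bp of starts was 20.7 ± 1.52% at 1 day and 17.7 ± 1.59% at 48hr APF, and 2 to 3 kb away it was 30.1 ± 3.85% at 1 day and 23.9 ± 4.52% at 48hr APF. The log2 ratio of these was -0.54, -0.48, -0.47 and -0.66 at 1 day, against -0.61, -0.34, -0.34 and -0.37 at 48hr APF, a difference of -0.12 that did not pass the test (exact permutation test, p = 0.171). Replicate 1 of 48hr APF had a dip as deep as those at 1 day. The stages did not overlap outside genes. Intergenic sequence was covered to 31.9, 31.1, 34.8 and 29.96% at 1 day, against 21.8, 22.4, 22.2 and 22.6% at 48hr APF (exact p = 0.029, adjusted p = 0.0952). Gene bodies were covered to 29.9 ± 2.43% at 1 day and 24.4 ± 2.96% at 48hr APF (exact p = 0.0571). The log2 ratio of gene bodies to intergenic sequence was -0.10 ± 0.16 at 1 day and 0.12 ± 0.18 at 48hr APF (exact p = 0.114).

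**Figure D5:**
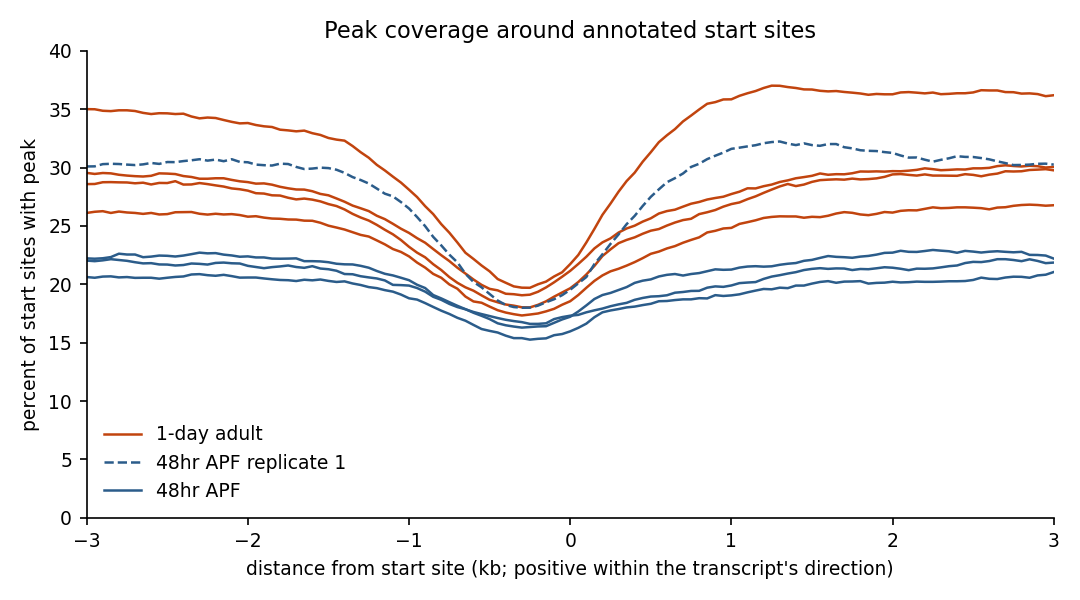
Percent of annotated start sites under a peak by distance from the start (kb) in each 1-day and 48hr APF library, with replicate 1 of 48hr APF dashed. All lines dip at the start, where coverage within 250 bp averages 20.7% at 1 day and 17.7% at 48hr APF, and the dashed line lies among the 1-day lines.

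The male *fru P1* libraries of the same stages were used only to ask whether the female change differs from theirs. On the autosomes, limma's test of the sex by stage difference called 0 of 9663 genes, with 480 at an unadjusted p below 0.05, and 2 with equal covered length. Of the 1357 autosomal bins gained in females, 1322 had the same sign in males and 680 were higher without overlap in males, where 14.8% of all autosomal bins were. Of the 253 lost bins, 233 had the same sign and 62 were lower without overlap, where 2.87% of all were. Genes gained in females on the autosomes had a median difference of 69.6 percentage points in females and 35.1 in males. Of these 155 genes, 147 had the same sign and 44 were higher without overlap in males, where 8.74% of all autosomal genes tested were. The male median over all autosomal genes tested was 8.34 percentage points, and over bins 7.07. A positive sign was therefore the more frequent one in males, and the sign counts of gains and losses are not alike. Of the 23 autosomal genes lost in females, 15 had the same sign in males. In males 5 of them were lower without overlap, where 1.65% of all autosomal genes tested were. Their median difference was -48.5 percentage points in females and -13.4 in males. These genes were chosen on the female values, so the sizes were not compared. *Taf3* was covered to 12.8% at 1 day and 72.5% at 48hr APF in males, and *sna* to 66.3% at 1 day and 14% at 48hr APF. *Syx17* and *Vti1b*, lost in females, were not lower in males. They were covered there to 15.2 and 19.4% at 1 day and to 14.2 and 15.9% at 48hr APF. Of the lists low in females, cytoplasmic ribosomal protein genes had a male median of -2.66, complex I genes 0 and chromosome 4 genes -12.8.

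Female *fru P1* libraries at 10 to 12 days and *elav* libraries of 1-day females, in which a pan-neuronal driver set the tag, bear on the same genes. *sna* averaged 0% at 48hr APF, 91.8% at 1 day and 5.88% at 10 to 12 days, and *Ubx* 43.3, 82.6 and 44.1% at these times. Averages of lists in this paragraph are over all annotated members, tested or not. The Osiris list averaged 23.1% at 48hr APF, 73.8% at 1 day and 34.1% at 10 to 12 days. Cytoplasmic ribosomal protein genes averaged 20% at 48hr APF, 6.0% at 1 day and 24.6% at 10 to 12 days. Genes of chromosome 4 averaged 22.6% at 48hr APF, 8.8% at 1 day and 11.2% at 10 to 12 days. In 1-day *elav* neurons *sna* averaged 49.2%, *Ubx* 90.2%, the Osiris list 52.1% and ribosomal protein genes 3.59%. Genes of chromosome 4 averaged 27.9% in 1-day *elav* neurons, above both their 8.8% at 1 day and their 22.6% at 48hr APF in *fru P1* neurons. These levels come from lists called on separate inputs and were not tested.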

How the data were processed

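H3K9me3 was profiled by sequential ChIP-seq in *fru P1* neurons. Upstream, the authors used Trimmomatic for trimming and Bowtie2 2.2.5 for alignment to dm6, kept single alignments, and called broad peaks per library with MACS2 (2.1.1.20160309 in the file headers, 2.1.0 in the submitters' processing notes) against an input pooled over replicates, at p of 0.01 for strong and 0.1 for weaker regions, with 1 tag kept per position and fragments of 200 bp. The deposited pileup is a signal in fragments without scaling by depth. Significance was deposited as a −log10 p, and the deposited fold enrichment is a ratio over the local background. These columns describe whole broad regions.

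Groups came from sample titles and characteristics. Peaks of the 6 arms (X, 4 and both arms of 2 and 3) were intersected with genes of Ensembl release 115 (BDGP6.54, the same coordinates as dm6, transposable-element genes left out) and with 10 kb bins. Genes of at least 1 kb, and bins, with mean coverage of at least 5%, were tested with limma 3.58.1 (trend, robust) in R 4.3.3 on the arcsine square root of the covered fraction, 4 libraries against 4, with Benjamini-Hochberg adjustment. Library values had two-sided exact permutation tests. Scripts used python 3.11.15, numpy 2.4.6 and pandas 2.3.3 and were tested on simulated data. Replicates were separate pools of flies, and 4 per stage limit the precision. Peak lists hold no counts, so coverage carries no counting interval. Coverage also depends on depth and on the input.

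Named genes were the 12 largest gains and losses among called genes with names whose libraries do not overlap, more than 20 kb apart, then *fru* and *dsx*, up to 4 called members per list in each direction, markers, and genes of the 5 longest runs in each direction. Other named genes were chosen after their values were seen. The members, 46 gene lists and tests were chosen with earlier results of these data known, and 9 lists were added after the values were seen. Alternatives were the scale, stricter peaks, equal covered length, filters, gene and bin sizes, other fits, the replicate block and each library left out. Replicate numbers in the titles were checked for pairing by the correlation of deviations from stage means. Replication-dependent histone genes and antimicrobial peptide genes had no member past the length and coverage filters. H3 libraries and the male *elav* lists were not analysed here.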

Additional observations from a re-analysis of the deposited data

Results flagged for a closer look

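Of 98 groups of 4 libraries examined, 22 held a library whose gap to the others was large for the range of its group. For normal values chance gives about 1 in 20 groups. That rate does not apply to gene coverage, which is bounded at both ends. Where the other libraries of a gene all sit at a bound, any differing value is flagged, however small. The genes were also chosen by their stage difference, so the number flagged was not compared with that rate. The groups are not independent, since the same libraries recur.

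Replicate 1 of 48hr APF, the deepest library of its stage, stood apart in 9 of these. It had a median peak width of 976 bp, a median fold enrichment of 1.43, a log2 ratio of start sites to flanks of -0.612, a log2 ratio of gene bodies to intergenic sequence of 0.397 and 3.39% of the centromere-proximal 1 Mb of 2L covered. It was also the high library of its stage at *Hr83* (39.5%), *TwdlN* (48.0%), *Pglym87* (55.4%) and *Elba1* (14.6%).

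Replicate 2 of 48hr APF was low in the telomere-proximal 1 Mb of X (17.7%) and at *Gbeta5* (26%), and high at *TwdlX* (26.8%). Among the 1-day libraries, replicate 2 was high on chromosome 4 (11.2%), in the centromere-proximal 1 Mb of X (18.1%), at *hook* (23.2%) and at *Taf3* (2.88%), and low at *TwdlN* (71.4%). Replicate 3 of 1-day was low at *sna* (67.1%). Replicate 4 of 1-day, the deepest of its stage, was low at *Osi14* (89.9%), *Cht5* (62.4%) and *TwdlX* (83.1%) and high at *Syx17* (13.2%). The genes in these groups kept the direction of their stage difference without each of the libraries.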

How the results depend on the processing

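Named genes and library values that passed the test kept their direction under the alternatives run. Over all calls, 3 of the 175 gained genes (*CG31391*, *grass* and *CG13436*) and 1 of the 1628 gained bins were at or below 0 with equal covered length. Gained and lost genes numbered 398 and 18 with peaks of p 0.05 or less, 116 and 5 with a fold enrichment of 1.5 or more, 63 and 56 with equal covered length, 424 and 78 with all 23 *fru P1* libraries in the fit, 268 and 67 among genes of 5 kb or more (a smaller number of genes tested), 223 and 43 with plain variances, and 124 and 16 without the deepest library of each stage, a setting chosen after seeing the data. Gained and lost bins numbered 1663 and 125 with peaks of p 0.05 or less, 923 and 43 with a fold enrichment of 1.5 or more, 566 and 672 with equal covered length, and 1499 and 165 with mean coverage of 20% or more. The causes were not tested.

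With each library left out, gained genes ranged from 35 to 424, lost genes from 1 to 58, gained bins from 1046 to 1922 and lost bins from 168 to 349. Of the 175 gained genes, 159 stayed called without replicate 1 of 48hr APF, 31 without replicate 3 of 1-day, 113 with peaks of p 0.05 or less, 48 with equal covered length and 15 with a fold enrichment of 1.5 or more. The sex by stage test called 0 to 1 genes as libraries were left out and 2 with equal covered length. In the same way the 1-day minus 48hr APF difference ranged from 8.39 to 10.4 Mb in covered length, from 131 to 160 bp in peak width, from 603 to 774 in peaks of 5 kb or more, and, in percentage points, from 8.12 to 9.25 on 2L, 6.59 to 7.58 on 3L, 7.24 to 8.67 on 3R, -15.6 to -9.96 on chromosome 4 and 5.47 to 8.23 on X. With a fold enrichment of 1.5 or more, arm differences were 8.37 on 2L, 5.86 on 2R, 7.25 on 3L, 9.05 on 3R and 6.35 on X, and the log2 ratios differed by -0.060 at start sites and -0.325 between gene bodies and intergenic sequence, now past the test.

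With the replicate block, limma called 0 genes gained and 0 lost (1661 and 363 at an unadjusted p below 0.05), and 1628 bins gained and 313 lost, of which 1543 and 286 were also called without it. The numbers were not shown to pair the samples: libraries of the same number correlated by -0.047 to 0.056 in genes and -0.088 to 0.123 in bins, although the deposited lists of 1-day females carry other numbers than the titles, so that the same number is itself uncertain. By contrast, the deepest libraries of the stages, 1-day replicate 4 and 48hr APF replicate 1, correlated by 0.357 in bins. With the block, the exact sign-flip test of library values cannot go below p = 0.125.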

Other observations

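Cytochrome P450 genes had a median difference of 16.3 percentage points (5.37 with equal covered length), with 59 of 82 higher at 1 day and 11 without overlap between the stages (13.4%, against 9.89% of all genes). Glutathione and UDP-glycosyl transferases had 17.5 (6.99 with equal covered length), with 42 of 52 higher. Limma called 0 of both, with 19 and 10 higher and 2 and 3 lower at an unadjusted p below 0.05. Of all 11291 genes tested, 7062 were higher on average, and 1804 were higher and 442 lower at that unadjusted p. Wnt ligand genes had 17.2, with 7 of 7 higher (21.3 with equal covered length). T-box genes had 16.4, with 7 of 8 higher, and limma called 0 of these or of the Wnt genes, with 1 T-box gene higher at an unadjusted p below 0.05.

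Long noncoding RNA genes gave 24 gains and 3 losses among 722 tested, where 1.55% of all genes gained and 0.23% lost, with a median of 12.1 percentage points (1.97 with equal covered length). *lncRNA:CR44753* on X was covered to 100, 100, 100 and 84.6% at 1 day, against 0% in each 48hr APF library. Genes of 50 kb or more had a median of 2.36, with 83 of 305 higher (27.2%) and 38 of 305 lower (12.5%) without overlap between the stages, where 9.89% and 2.95% of all genes were.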
